A study of Ovis aries with 6 samples.

Results

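The genes described here encode the machinery that brings proteins into mitochondria, fuses and divides mitochondria, shapes their inner membrane and degrades their proteins. They were taken by name from the full gene table. Every gene named TIMM or TOMM with a following digit was included, together with MFN1, MFN2, OPA1, OMA1, DNM1L, FIS1, MFF, AFG3L2, SPG7, YME1L1, CLPP, CLPX, LONP1, PHB, PHB2, IMMT and CHCHD3. This gave 35 of 24390 genes.

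Almost all mitochondrial proteins are made from nuclear genes and enter through the TOM complex of the outer membrane. The TIM23 complex and its motor then pass proteins with a presequence to the matrix. The TIM22 complex, fed by small TIM chaperones, inserts carriers, the family to which the uncoupling protein UCP1 of brown fat belongs. Mitofusins and OPA1 fuse mitochondria, DNM1L divides them, and the MICOS complex holds the folds of the inner membrane, the cristae, which are dense in brown adipocytes. Proteases of the inner membrane and matrix remove damaged proteins and process others, OPA1 among them.

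RNA sequencing was done on perirenal fat, the adipose depot around the kidney, from wild-type pure-bred Merinos. Samples came from 3 fetuses 132 days after conception (term is 150 days) and from 3 lambs whose age the labels give as 80 days after birth, as 89 days old and as 12 weeks. The labels state that no treatment was given, while the lamb sample titles carry the letters VEH, which the sources used here do not explain. If they mark a vehicle, it cannot be told apart from stage. Animals were not pooled, and each gave 1 library, so that n = 3 in each stage for every mean ± SD below.

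Libraries held between 15907128 and 19150428 counts. The mitochondrial genome took 27.5 to 40.7% of the counts in fetal and 7.37 to 8.29% in lamb libraries, so the scaling of the libraries bears on every level given here. Levels are CPM, which relate counts to a library size corrected by TMM factors. Differences are on the log2 scale, lambs minus fetuses, ± SE, and adjusted p-values are those of edgeR over all genes tested. With scaling by library totals alone, the median difference of all genes moved up by 0.47 on the log2 scale. Adipocyte markers (5 of the listed names had a row) summed to 12600 to 15900 CPM in fetal and 25300 to 35600 CPM in lamb libraries, and 4 of them were called higher. Brown adipocyte markers (5) summed to 1390 to 2540 CPM in fetuses and 475 to 587 CPM in lambs, with 4 called lower. Macrophage markers (5) went from between 109 and 203 to between 1100 and 1340 CPM, with 4 called higher. Red cell markers (3) were at 354 to 1260 and 29.6 to 55.2 CPM, urothelial and epithelial ones (7) at 49.6 to 176 and 0.363 to 0.494 CPM, and skeletal muscle ones (5) at 26 to 122 and 7.07 to 10.6 CPM. Endothelial markers (4) overlapped, at 1290 to 1640 and 1380 to 1500 CPM. Kidney markers (6) stayed at or below 2.50 CPM in sum, with AQP2 and SLC34A1 at 0 in all libraries, and adrenal ones (5) at or below 48.0 CPM with DBH at 0. The part of these cell types in the results below was not tested. In whole tissue, fewer cells of a type and less RNA per cell cannot be told apart.

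Transcripts for this machinery were mostly lower in lambs, but unevenly. Of the listed genes, IMMT and CHCHD3 of MICOS, TIMM44 of the TIM23 motor and TOMM5 and TOMM40 of the import pore fell most. Other genes of MICOS and the motor fell less or did not pass the test. C19orf70 at -1.48 and HSPA9 at -1.49 were among those called lower. GRPEL2 (-0.32, adjusted p = 0.222) and DNAJC15 (-0.38, adjusted p = 0.195) of the motor were not called. Import receptors, the outer membrane fission protein FIS1, the mitofusin MFN1 and the protease YME1L1 did not pass the test. Of the 35 genes, 33 passed the filter on low counts and were tested. Of these, 22 were called lower in lambs and 0 higher, and 11 did not pass, where 22.7% of all 13624 genes tested were called lower and 22.0% higher. The median difference of the 33 was -0.74, against -0.01 for all genes tested. At an unadjusted p below 0.05 in edgeR, 1 gene, FIS1, was higher and 24 were lower. Of all 13624 genes tested, 3535 were higher and 3689 lower at that threshold. After adjustment, the DESeq2, limma-voom and edgeR exact tests also called 22 lower and 0 higher. More than 2-fold decreases were called for 10 of the 33, against 12.9% of all genes. With library totals, 11 were lower and 5, namely TOMM6, TOMM22, MFN1, YME1L1 and FIS1, were higher (10.7% and 41.1% of all genes), with a median of -0.25 against 0.46 for all genes. The distance between the median of these genes and that of all genes was thus -0.73 with TMM and -0.71 with library totals.

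**Figure D1:**
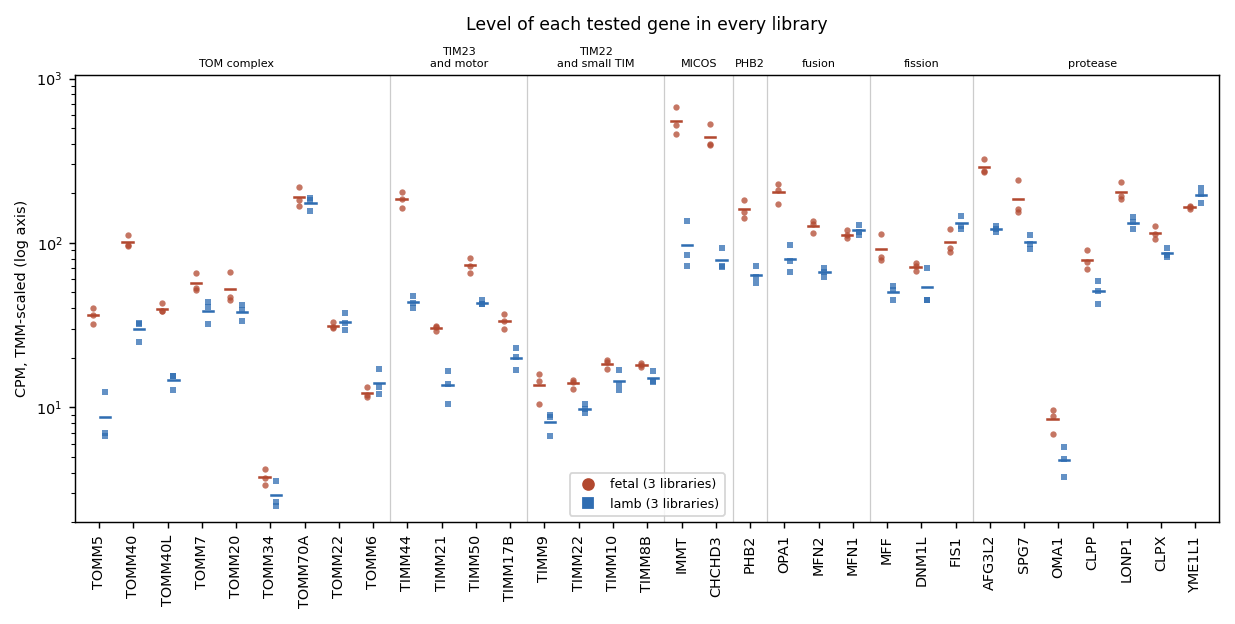
Level of the 33 tested genes in each library, as TMM-scaled CPM on a log axis, grouped by role. Circles are fetal and squares lamb libraries (3 each), and short lines are stage means. CPM is not scaled by gene length, so levels are to be compared between stages within a gene. The stages are far apart for IMMT, CHCHD3 and TIMM44 and overlap for MFN1, TOMM22 and TOMM70A.

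All 3 lamb values lay below all 3 fetal values for 25 of the 33 genes (29.5% of all genes tested), and above them for FIS1 and YME1L1 (28.2%). With library totals 14 of the 33 lay below (13.2%) and 6 above (48.5%). These 6 were TOMM70A, MFN1, TOMM22, TOMM6, YME1L1 and FIS1.

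The 2 MICOS genes had the largest decreases of the 33. IMMT, which encodes mitofilin, the core protein of MICOS at crista junctions (ENSOARG00000020639, chromosome 3, 57899362 to 57938897 on Oar v3.1), was at 523, 673 and 460 CPM in the fetal libraries and at 72.0, 83.9 and 135 CPM in the lamb libraries. Its difference was -2.51 ± 0.27 (adjusted p = 3.86e-04), and it was -2.82 without lamb replicate 3, the highest lamb value. The gene model overlaps MRPL35 at one end, and counts of overlapping genes may hold reads of either. CHCHD3, a MICOS subunit bound to mitofilin (ENSOARG00000006757, chromosome 4, 96481673 to 96764597), was at 395, 528 and 401 CPM in fetuses and 71.1, 72.3 and 92.5 CPM in lambs. Its difference was -2.49 ± 0.18 (adjusted p = 1.02e-04). Both genes fell with every scaling, at -2.01 and -2.00 with library totals. Their ratio within a library, IMMT to CHCHD3, ran from 1.15 to 1.32 in fetuses and from 1.01 to 1.46 in lambs and thus overlapped.

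In the TOM complex the pore and its small subunits TOMM5 and TOMM7 were called lower, while no receptor passed the test with TMM scaling. Whether pore and receptor genes differ was not tested. Of 9 tested TOMM genes, 4 fell and 5 missed the threshold, where 22.7% of all genes tested were called lower. With TMM, 0 were higher at an unadjusted p below 0.05 in edgeR, where 3535 of all 13624 genes tested were. With library totals 3 were called lower and 2, TOMM6 and TOMM22, higher, where 10.7% of all genes were lower and 41.1% higher. TOMM40, the pore of the outer membrane (ENSOARG00000009405, chromosome 14, 51689549 to 51700871), was at 97.6, 112 and 95.1 CPM in fetuses. In lambs it was at 25.1, 32.5 and 32.2 CPM, a difference of -1.76 ± 0.14 (adjusted p = 1.30e-04). Its paralogue TOMM40L (chromosome 1, 110766095 to 110768707) was at 38.3, 43.0 and 38.3 CPM in fetuses and 15.4, 12.7 and 15.6 CPM in lambs (-1.45 ± 0.13, adjusted p = 1.67e-04). The stages of both pore genes lay well apart. There were 1.63 to 2.56 TOMM40 counts for each TOMM40L count in lambs and 2.48 to 2.60 in fetuses, which overlapped.

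Of the small subunits that sit around the pore, TOMM5 and TOMM7 were called lower and TOMM6 was not. TOMM5 (ENSOARG00000011430, chromosome 2, 50866190 to 50869311) was at 36.3, 40.4 and 32.0 CPM in fetuses and 7.02, 6.69 and 12.4 CPM in lambs (-2.05 ± 0.25, adjusted p = 6.23e-04). Lamb replicate 3 was the highest of its stage here too, and without it TOMM5 was at -2.40. TOMM7 had 56.8 ± 7.80 CPM in fetuses and at 38.7 ± 5.90 CPM in lambs (-0.55 ± 0.16, adjusted p = 0.0220). That call was lost without fetal replicate 2 (adjusted p = 0.0730), without lamb replicate 2 (0.0548), under the replicate block, with the replicate number as a term (0.0568), and with library totals (0.749), within a range of 0.0103 to 0.749 over all alternatives. TOMM6 was at 12.2 ± 0.898 and 14.1 ± 2.57 CPM (0.21 ± 0.16, adjusted p = 0.321), and it was called higher with library totals (0.69, adjusted p = 0.0135). By the authors' stage means of RPKM, which scale for gene length and library size, TOMM5 had 160 in fetuses, above TOMM7 at 117 and TOMM6 at 68.0. In lambs TOMM5 was the lowest of the 3 at 58.3 RPKM, with TOMM7 at 113 and TOMM6 at 103. These means have no error of their own here.

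None of the import receptors passed the test with TMM scaling. TOMM20, which binds presequences, was at 46.6, 66.1 and 44.7 CPM in fetuses and 39.0, 41.6 and 33.5 CPM in lambs (-0.46 ± 0.17, adjusted p = 0.0629). The lamb values lay below the fetal ones by a small margin, and TOMM20 stood at 0.04 with library totals. It passed with upper quartile factors (adjusted p = 0.0459), with a filter of 5 CPM in 3 libraries (0.0474) and with the replicate block (0.0433), in a range of 0.0433 to 0.851. TOMM70A, the receptor for carriers, was at 167, 218 and 183 CPM in fetuses and 188, 183 and 157 CPM in lambs (-0.10 ± 0.14, adjusted p = 0.583). TOMM22, the central receptor, was at 30.2, 30.7 and 32.9 CPM and 32.4, 29.6 and 37.4 CPM (0.08 ± 0.12, adjusted p = 0.607). The stages overlapped for both with TMM, and with library totals TOMM22 was called higher (0.55, adjusted p = 0.0275). TOMM34, a cochaperone found mostly in the cytosol, was at 3.75 ± 0.425 and 2.92 ± 0.579 CPM (-0.36 ± 0.24, adjusted p = 0.260). TOMM20L, named as a copy of TOMM20, had 5, 8 and 3 counts in fetal and 5, 9 and 7 in lamb libraries and was not tested. The authors' RPKM means for it are 23.2 and 24.2, or 0.230 and 0.290 counts per RPKM unit, whereas the other listed genes with counts had between 2.71 and 91.8. Between stages, counts per RPKM unit went from 11.3 in fetuses to 7.05 in lambs for TOMM34, and from 74.6 to 78.0 for DNM1L. The RPKM means thus did not follow the deposited counts evenly across genes. Why these ratios differ was not tested, and no level is read from the RPKM of TOMM20L.

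All 4 tested genes of the TIM23 complex and its motor were called lower, where 22.7% of all genes tested were. TIMM44, which anchors the mitochondrial HSP70 to the channel (ENSOARG00000003105, chromosome 5, 14359615 to 14371424), was at 184, 205 and 162 CPM in fetuses and 40.3, 47.4 and 42.8 CPM in lambs. Its difference of -2.08 ± 0.14 had the smallest adjusted p of the set, 7.22e-05. TIMM21, which links TIM23 to the TOM complex and to respiratory chain assembly, went from 30.5 ± 1.09 to 13.7 ± 3.14 CPM (-1.16 ± 0.18, adjusted p = 0.00164). The presequence receptor gene TIMM50 went from 72.9 ± 7.72 to 43.2 ± 1.56 CPM (-0.75 ± 0.12, adjusted p = 0.00172). For the channel subunit TIMM17B, on the X chromosome, levels were 33.5 ± 3.32 and 20.0 ± 3.09 CPM (-0.74 ± 0.15, adjusted p = 0.00556). With library totals TIMM44 and TIMM21 were still called, at -1.59 and -0.68, but TIMM50 (adjusted p = 0.171) and TIMM17B (0.240) were not. TIMM50 overlaps SUPT5H at one end. TIMM8A, TIMM13, TIMM17A and TIMM23 were not analysed here, as no row matched those names.

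In the carrier import branch, 2 of the 4 tested genes were called lower, where 22.7% of all genes tested were. TIMM22, the channel for carriers, was at 14.0 ± 0.905 CPM in fetuses and at 9.83 ± 0.663 CPM in lambs (-0.51 ± 0.13, adjusted p = 0.0166). The small chaperone gene TIMM9 was at 14.5, 16.0 and 10.4 CPM and then 6.67, 8.72 and 8.95 CPM (-0.75 ± 0.21, adjusted p = 0.0208). Its partner TIMM10 was at 18.8, 19.3 and 17.2 CPM and then 12.8, 13.9 and 16.8 CPM (-0.34 ± 0.14, adjusted p = 0.0831). TIMM8B, of the other small chaperone complex, was at 17.7, 18.5 and 18.1 CPM in fetuses and 16.6, 14.3 and 14.5 CPM in lambs (-0.26 ± 0.12, adjusted p = 0.114). No lamb value reached a fetal one for any of the 4 genes with TMM, as for 29.5% of all genes tested. With library totals TIMM22 stood at -0.04, TIMM9 at -0.25, TIMM10 at 0.13 and TIMM8B at 0.22, none of them called and all overlapping. The TIMM9 call was also lost without fetal replicate 1 (adjusted p = 0.0632), fetal replicate 2 (0.0731) or lamb replicate 1 (0.0610), in a range of 0.00762 to 0.345. The TIMM22 call was lost without fetal replicate 2 (0.0517) or 3 (0.0645), in a range of 0.00925 to 0.890. TIMM10 passed without lamb replicate 3 (0.0359), with upper quartile factors (0.0409) and with a filter of 5 CPM in 3 libraries (0.0496), in a range up to 0.556. TIMM9 and TOMM20L lie 444 bases apart on chromosome 7.

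**Figure D2:**
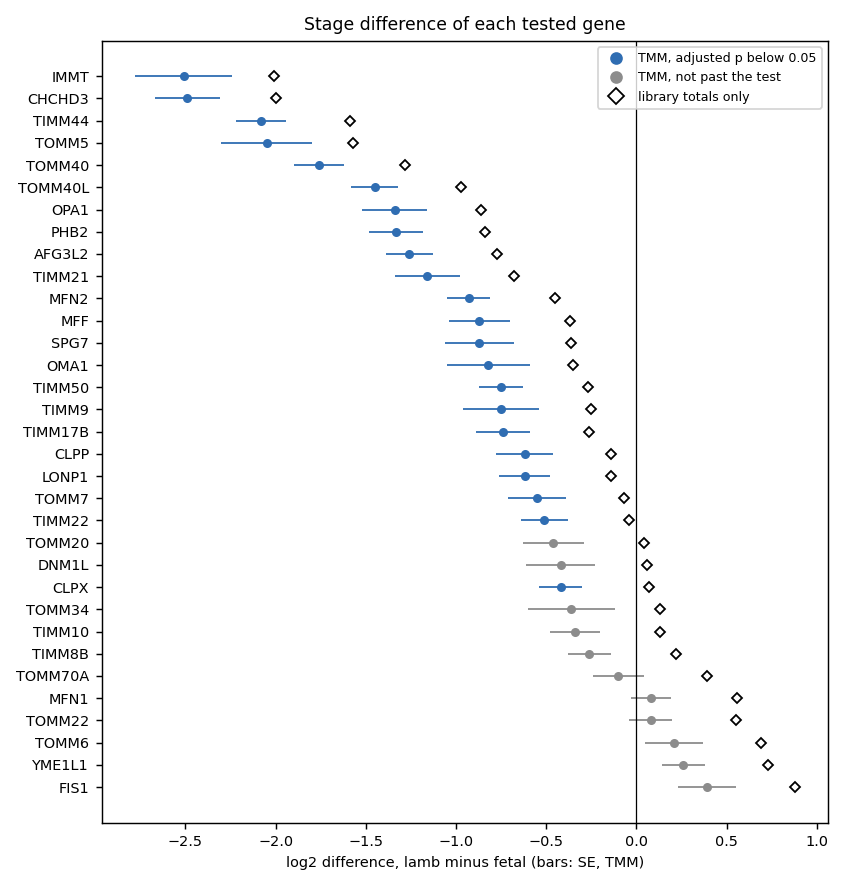
Difference of each tested gene between stages on the log2 scale, lamb minus fetal. Circles are the TMM fit with SE bars, blue where adjusted p was below 0.05 and grey otherwise, and open diamonds are the same genes with library totals alone. Values run from IMMT at -2.51 to FIS1 at 0.39 with TMM, and every diamond stands to the right of its circle.

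Of the fusion genes, OPA1 and MFN2 were called lower and MFN1 was not. OPA1, the inner membrane fusion GTPase that also holds cristae tight (ENSOARG00000020426, chromosome 1, 192033856 to 192109295), was at 173, 227 and 210 CPM in fetuses and 77.1, 66.3 and 97.2 CPM in lambs (-1.34 ± 0.18, adjusted p = 9.24e-04). MFN2, a mitofusin of the outer membrane (ENSOARG00000017763, chromosome 12, 39817194 to 39841169), was at 135, 130 and 115 CPM and then 66.1, 70.5 and 62.4 CPM (-0.93 ± 0.12, adjusted p = 7.27e-04). Both fell and neither overlapped between stages. With library totals OPA1 stood at -0.86 (adjusted p = 0.00413) and MFN2 at -0.45 (adjusted p = 0.0437), the latter close to the threshold. MFN1, the paralogue of MFN2 (ENSOARG00000020701, chromosome 1, 205914105 to 205943212), was at 111, 119 and 107 CPM in fetuses and 117, 128 and 112 CPM in lambs (0.08 ± 0.11, adjusted p = 0.582). MFN1 values overlapped with TMM, and with library totals MFN1 was called higher (0.56, adjusted p = 0.0159).

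A ratio of the counts of 2 genes within a library does not depend on the scaling. Counts are not corrected for gene length, so only the change of a ratio between stages is read here. Of 18 ratios listed, 13 could be formed, and each was compared between stages with a two-sided exact permutation test, whose smallest p with 3 against 3 is 0.1. No ratio could therefore pass, before or after adjustment over the 13. MFN1 had 0.823, 0.916 and 0.930 counts for each MFN2 count in fetuses and 1.77, 1.82 and 1.79 in lambs. That is a log2 shift of 1.01 with an SD of 0.10 among fetal and 0.02 among lamb libraries (exact permutation p = 0.1, adjusted p = 0.217), and the stages did not overlap. Per length, by the authors' RPKM means, MFN1 stood at 43.1 and MFN2 at 37.9 in fetuses, and at 64.8 and 28.2 in lambs. RPKM carries no TMM factor, so these means compare the 2 genes within a stage only. MFN2 to OPA1 overlapped between stages, with a log2 shift of 0.42 (exact permutation p = 0.2, adjusted p = 0.260).

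Of the fission genes, MFF was called lower, and FIS1 and DNM1L did not pass the test. MFF, an outer membrane receptor for DNM1L (chromosome 2, 228596170 to 228619345), was at 79.0, 114 and 82.0 CPM in fetuses and 51.4, 44.7 and 54.5 CPM in lambs (-0.87 ± 0.17, adjusted p = 0.00495, and 0.0739 with library totals). FIS1, an outer membrane protein of fission and mitophagy (ENSOARG00000014855, chromosome 24, 35366314 to 35369645), was at 93.0, 121 and 88.1 CPM and then 146, 122 and 127 CPM (0.39 ± 0.16, adjusted p = 0.0783). The stages of FIS1 touch, since the highest fetal value is just under the lowest lamb value. FIS1 was called higher without fetal replicate 2 (0.54, adjusted p = 0.0270) and with library totals (0.88, adjusted p = 0.00133), in a range of 0.00133 to 0.237. FIS1 counts per MFF count were 1.18, 1.06 and 1.07 in fetuses and 2.85, 2.73 and 2.32 in lambs. This log2 shift of 1.25 was the largest of the 13 (exact permutation p = 0.1, adjusted p = 0.217). By the authors' RPKM means FIS1 stood at 261 in lambs, the highest of the listed genes, with TOMM7 next at 113.

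DNM1L, the dynamin-like GTPase that constricts mitochondria, was at 72.1, 75.4 and 67.4 CPM in fetuses and 44.9, 45.2 and 70.8 CPM in lambs (-0.42 ± 0.19, adjusted p = 0.110). Here 2 lambs lay well below the fetuses and the third among them. Without lamb replicate 3, DNM1L was called lower (-0.67, adjusted p = 0.00540, in a range of 0.00540 to 0.820), and with library totals it stood at 0.06. DNM1L overlaps an unnamed gene. The DNM1L to OPA1 ratio was 0.417, 0.333 and 0.321 in fetuses and 0.583, 0.682 and 0.729 in lambs, a log2 shift of 0.90 with no overlap (exact permutation p = 0.1, adjusted p = 0.217).

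Of the 7 protease genes, 6 were called lower and YME1L1 was not, where 22.7% of all genes tested were called lower. AFG3L2 and SPG7 encode the subunits of the m-AAA protease, which faces the matrix. AFG3L2 (ENSOARG00000001770, chromosome 23, 43176401 to 43194125) was at 275, 324 and 269 CPM in fetuses and 116, 126 and 121 CPM in lambs (-1.26 ± 0.13, adjusted p = 2.73e-04). SPG7 was at 160, 241 and 154 CPM and then 112, 92.3 and 98.9 CPM (-0.87 ± 0.19, adjusted p = 0.00870, and 0.0919 with library totals). AFG3L2 to SPG7 ran from 1.35 to 1.75 in fetuses and from 1.04 to 1.36 in lambs, an overlap by a narrow margin (log2 shift -0.41, exact permutation p = 0.2, adjusted p = 0.260).

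YME1L1 and OMA1 both cleave OPA1, and YME1L1 faces the intermembrane space. YME1L1 (ENSOARG00000015762, chromosome 13, 16731648 to 16761625) was at 165, 160 and 168 CPM in fetuses and 199, 176 and 215 CPM in lambs (0.26 ± 0.12, adjusted p = 0.121). All lamb values were above the fetal ones, and it was called higher with library totals (0.73, adjusted p = 0.00675). OMA1, a stress-activated peptidase (chromosome 1, 32970778 to 33023119), stood at 6.87, 8.83 and 9.61 CPM and then 4.84, 3.74 and 5.75 CPM (-0.82 ± 0.23, adjusted p = 0.0211). The call did not hold without fetal replicate 2 (0.0627), fetal replicate 3 (0.0728), lamb replicate 1 (0.0522) or lamb replicate 2 (0.0539) and with library totals (0.30), in a range of 0.00825 to 0.30. The OMA1 to YME1L1 ratio was 0.0419, 0.0553 and 0.0574 in fetuses and 0.0245, 0.0214 and 0.0269 in lambs, a log2 shift of -1.08 with no overlap (exact permutation p = 0.1, adjusted p = 0.217). OMA1 to OPA1 went the other way, from between 0.0391 and 0.0458 to between 0.0568 and 0.0631 (log2 shift 0.52, exact permutation p = 0.1, adjusted p = 0.217).

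**Figure D3:**
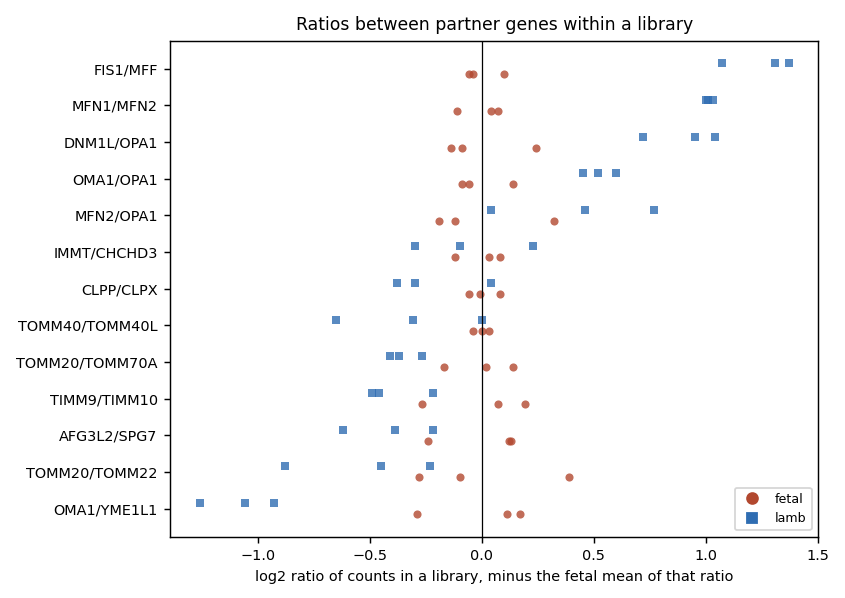
Ratios of the counts of 2 genes within each library on the log2 scale, each shown relative to its fetal mean. Circles are fetal and squares lamb libraries (3 each). For 6 of the 13 ratios the stages do not overlap. FIS1/MFF is shifted most to the right (1.25) and OMA1/YME1L1 most to the left (-1.08). Of all single genes tested, 29.5% lay below and 28.2% above in lambs without overlap. Pairs of other genes were not examined, so the 6 are not read as a trait of these pairs.

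All 3 genes of matrix proteases were called lower, where 22.7% of all genes tested were. LONP1, the main soluble protease of the matrix, was at 205 ± 27.1 CPM in fetuses and at 133 ± 10.8 CPM in lambs (-0.62 ± 0.14, adjusted p = 0.00882). CLPP, a proteolytic core, was at 76.1, 90.3 and 69.0 CPM and then 51.3, 42.5 and 58.9 CPM (-0.62 ± 0.16, adjusted p = 0.0154). CLPX, its unfolding partner, was at 113, 126 and 106 CPM and then 92.8, 81.7 and 84.2 CPM (-0.42 ± 0.12, adjusted p = 0.0245). All lamb values lay below the fetal ones with TMM for these 3 genes, as for 29.5% of all genes tested. None of the 3 was called with library totals (-0.14, -0.14 and 0.07). The CLPP call was lost without fetal replicate 2 (adjusted p = 0.0504), in a range of 0.00325 to 0.506. The CLPX call was lost without fetal replicate 1 (0.0604) or 2 (0.0777), without lamb replicate 2 (0.0668) or 3 (0.0615) and with the replicate block (0.0572), in a range of 0.00878 to 0.739. CLPP to CLPX overlapped between stages (0.650 to 0.717 and 0.520 to 0.70). The LONP1 model spans 199800 bases and contains 9 other gene models, RANBP3 and DUS3L among them.

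Prohibitins form rings in the inner membrane that bind the m-AAA protease. PHB2 (ENSOARG00000005015, chromosome 3, 207445228 to 207449193) was at 142, 183 and 155 CPM in fetuses and 61.7, 72.0 and 57.3 CPM in lambs (-1.33 ± 0.15, adjusted p = 4.38e-04, and -0.84 with library totals). The stages were well apart. The gene listed as PHB (ENSOARG00000007032, chromosome 16, 18330306 to 18331084) had 0 counts in all 6 libraries, which allows up to 0.157 to 0.189 CPM per library before TMM scaling. Its model spans 779 bases, and the RefSeq table of the assembly ARS-UI_Ramb_v3.0 has PHB1 on another chromosome. What this row measures could not be settled, so PHB2 had no partner to be compared with.

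The 35 genes lie on 17 chromosomes. Lamb replicate 3 had the highest value of its stage in 20 of the 33 tested genes and in 15 of the 22 called lower. In the fetal stage, replicate 2 was highest in 28 of the 33. That library had the smallest TMM factor (0.723) and the largest share of mitochondrial genome counts (40.7%). Whether these bear on its high values was not tested. How often each library was highest was not counted over all genes, so no trait of the listed genes is read from it. Without fetal replicate 2, 16 genes were called lower and 1, FIS1, higher, while calls over all genes went from 6095 to 4798. The median coefficient of variation of the 33 genes was 11.3% among fetuses and 11.9% among lambs, next to 12.6% and 16.3% over all genes tested. TIMM8B varied least among fetuses (2.13%) and SPG7 most (26.2%), and among lambs these were TIMM50 (3.60%) and TOMM5 (37.1%).

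Nuclear genes of the respiratory chain, many of whose products this machinery imports, and genes of the mitochondrial ribosome were set beside it. The 58 tested respiratory chain genes, taken by name pattern, had a median of -1.94, with 55 lower and 0 higher, and the 64 of the mitochondrial ribosome had a median of -0.79, with 50 lower and 0 higher (22.7% and 22.0% of all genes). With TMM in edgeR no gene of either list was higher at an unadjusted p below 0.05, where 3535 of all 13624 genes were. The DESeq2, limma-voom and edgeR exact tests called 0 higher in both. With library totals the respiratory chain had 53 lower and 0 higher (median -1.46) and the mitochondrial ribosome 26 lower and 6 higher (median -0.30), where 10.7% of all genes were lower and 41.1% higher. Summed over the 35 genes, there were 11.0, 9.89 and 10.5 counts per 100 respiratory chain counts in fetuses and 22.3, 26.4 and 21.3 in lambs. The means were 10.5 ± 0.556 and 23.3 ± 2.70 (SD, n = 3), and the stages did not overlap (two-sided exact permutation p = 0.1, the smallest 3 against 3 allows). Per 100 counts of mitochondrial ribosome genes, the sums were 113, 113 and 110 in fetuses and 103, 112 and 107 in lambs, which overlapped (exact permutation p = 0.2).

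**Figure D4:**
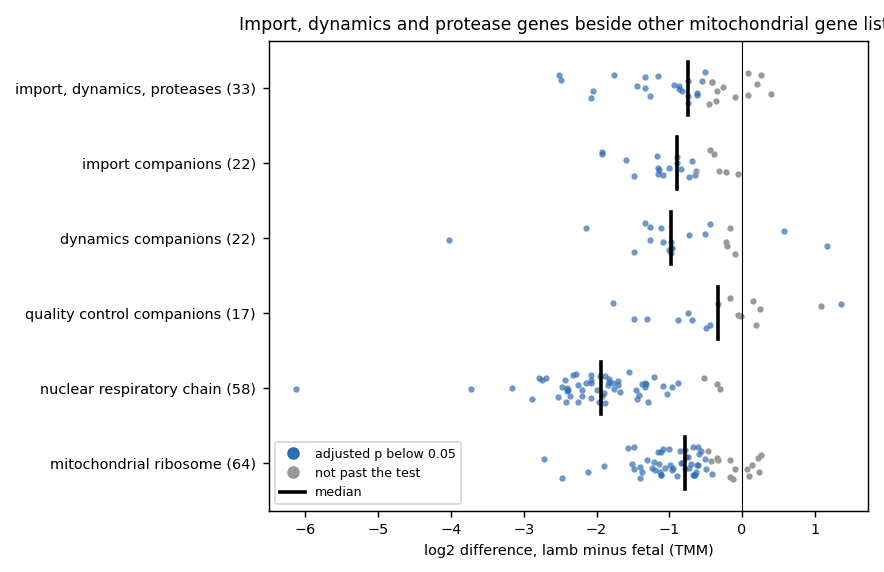
Difference between stages on the log2 scale (TMM) for the import, dynamics and protease genes and for 5 other lists, with the number of tested genes in brackets. Each point is a gene, blue where adjusted p was below 0.05, and black bars are medians, from -1.94 for the nuclear respiratory chain to -0.33 for the quality control companions.

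Other genes of the same pathways were taken from 3 lists. HSPA9, HSPD1 and HSPE1 stand in both the import and the quality control list. Of 22 import companions, which include motor chaperones, processing peptidases and the sorting machinery of the outer membrane, 16 fell, 0 rose and 6 missed the threshold (median -0.89), where 22.7% of all genes were lower and 22.0% higher. In edgeR with TMM 0 were higher at an unadjusted p below 0.05, where 3535 of all 13624 genes were. The 3 other tests also called 0 higher. SAMM50, which builds barrel proteins into the outer membrane, went from 477 ± 95.2 to 126 ± 15.0 CPM (-1.92 ± 0.18), and the inner membrane peptidase gene IMMP2L fell equally (-1.92 ± 0.18). MTX3, a metaxin, fell by 1.59 ± 0.27 on the log2 scale. HSPA9, the HSP70 of the import motor that TIMM44 anchors, went from 1800 ± 215 to 644 ± 26.1 CPM (-1.49 ± 0.15, adjusted p = 3.10e-04). With library totals 10 import companions were lower and 1 higher (10.7% and 41.1% of all genes).

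Of 22 tested dynamics companions, 16 fell, 2 rose and 4 missed the threshold (median -0.98), where 22.7% of all genes were lower and 22.0% higher. With library totals 11 were lower and 2 higher (10.7% and 41.1% of all genes). MTFP1, an inner membrane protein of fission, had the largest fall of the 3 lists, from 46.8 ± 3.91 to 2.86 ± 1.44 CPM (-4.03 ± 0.32, adjusted p = 1.17e-04). FAM73B, also known as MIGA2, promotes fusion and went from 74.6 ± 8.45 to 16.9 ± 1.74 CPM (-2.14 ± 0.14). The MICOS subunit gene C19orf70 (-1.48 ± 0.19) and the transport adaptor gene TRAK2 (-1.33 ± 0.13) fell as well. The genes that rose were INF2, a formin that acts where the endoplasmic reticulum meets dividing mitochondria (1.17 ± 0.17), and MARCH5, a ubiquitin ligase of the outer membrane (0.57 ± 0.13).

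Of 17 quality control companions, 8 fell, 1 rose and 8 missed the threshold (median -0.33), where 22.7% of all genes were lower and 22.0% higher. With library totals 3 were lower and 7 higher, a share of higher calls near the 41.1% of all genes. The chaperone gene TRAP1 (-1.77 ± 0.27), LACTB (-1.30 ± 0.22) and the intermembrane space protease gene HTRA2 (-0.88 ± 0.16) fell. XRCC6BP1, which encodes the peptidase ATP23 of ATP synthase assembly, rose from 20.3 ± 6.53 to 52 ± 8.57 CPM (1.36 ± 0.23, adjusted p = 0.00294).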

How the data were processed

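Per the labels and the series' design text, single-end 50 bp reads of 6 libraries on 1 flowcell were mapped by the authors to Ensembl gene models of Oar v3.1 in CLC Genomics Workbench. For strandedness and for reads that map to several places, the settings were not given in the sources used here. The authors deposited raw counts for each gene and library in 1 full table. RPKM values are the authors' stage means, used only for description. The 6 per-library RPKM columns were left out, since 1 header is repeated there.

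The test was that of edgeR 4.0.16 in R 4.3.3, with filterByExpr, TMM, quasi-likelihood F test without covariates, and Benjamini-Hochberg adjustment over 13624 genes with calls below 0.05. SE is the size of the difference over the root of F. CPM uses TMM-scaled totals of the tested genes. Ratios add 0.5 counts to each gene. Alternatives used DESeq2 1.42.0, limma 3.58.1, other scalings and filters, a replicate block, and each library left out. Limits of a 0 cover counting error only.

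The genes and lists were chosen with earlier results of these data known. All listed genes are accounted for. Values per library are given for the 8 largest called changes in each direction, for genes in a described ratio and for the highest of each role, and for some others added after their values were seen. Of each companion list, up to 4 called genes down and 2 up are named. Not every gene that overlaps a member is reported here.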

Additional observations from a re-analysis of the deposited data

How the results depend on the processing

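Each of the 33 tested genes was refitted under up to 16 alternatives. Of 527 such values, 477 kept direction and side of the threshold, 28 lost the call without a change of sign, 13 gained one and 9 changed sign, of which CLPX with library totals also lost its call. For 14 genes no alternative changed the call. Of these, TOMM34, TIMM8B and TOMM70A were not called in any fit, and the others were called lower in every fit. Library totals had the most effect: 11 genes were called lower and 5 higher, the median was -0.25, and 10 import and 3 quality control companions were lower. The signs that changed there were those of TOMM20 (0.04), DNM1L (0.06), CLPX (0.07), TOMM34 (0.13), TIMM10 (0.13), TIMM8B (0.22) and TOMM70A (0.39). This alternative keeps the mitochondrial genome share in the scale, and the median of all genes moves with it. On leaving out 1 library, TOMM70A ran from -0.19 to 0.01 (without fetal replicate 2), TOMM22 from -0.01 (without lamb replicate 3) to 0.16 and the IMMT/CHCHD3 ratio from -0.20 to 0.06 (without lamb replicate 1). The causes were not tested. With 1 library left out, between 16 and 23 genes were lower and between 0 and 1 higher. Calls over all genes then ran from 4798 to 5654, against 6095 with all libraries.

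Replicate numbers share no source in the labels. Deviations of same-numbered libraries correlated at -0.019, -0.119 and 0.029, and 1 of 6 libraries matched its own number best. With the replicate block 21 genes were lower and 0 higher, with a median of -0.74, and 5353 genes were called in all against 6095. TOMM34 and OMA1 had 348 and 681 counts over 6 libraries, and whether depth limits their calls was not tested.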

Other observations

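Lists of protein handling in other compartments are to be read against all genes tested, of which 22.7% were called lower and 22.0% higher with TMM (median -0.01), and 10.7% lower and 41.1% higher with library totals (median 0.46). Of 34 proteasome genes, 1 was called lower, 7 higher and 26 did not pass (median -0.01), and with library totals 0 were lower and 19 higher (median 0.47, near that of all genes). Of 9 genes of the endoplasmic reticulum translocon, 1 was lower, 4 higher and 4 did not pass (median 0.44), and with library totals 0 were lower and 8 higher (median 0.91). Of 16 tested peroxin genes, which serve import into peroxisomes, 6 were lower, 3 higher and 7 did not pass (median -0.21), and with library totals 3 were lower and 5 higher (median 0.27). The difference between these lists and the mitochondrial ones was not tested.

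The 35 genes took 0.311, 0.316 and 0.335% of all counts in fetuses and 0.228, 0.226 and 0.239% in lambs. Outside the mitochondrial genome their share was 0.475, 0.533 and 0.463% in fetuses and 0.248, 0.244 and 0.261% in lambs. The stages did not overlap on either base (two-sided exact permutation p = 0.1 each, the smallest 3 against 3 allows).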
